A study of Homo sapiens with 18 samples.

Results

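The genes described here form the core of canonical Wnt and beta-catenin signalling: the co-receptors LRP5 and LRP6, the transducer DVL2, the destruction complex genes APC, AXIN1, AXIN2, GSK3A and GSK3B, and the effectors CTNNB1 and TCF7L2. They were taken by symbol from the pathway, with earlier results of these data known. Of these 10 genes, 8 have a row among the 8996 genes of the table; LRP6 and AXIN2 are absent from it by symbol and by Ensembl identifier, so no value is given for them. The samples were HEK293T cells, a wild-type human embryonic kidney line, exposed for 3 h to STM2457, an inhibitor of the m6A methyltransferase METTL3, or to its solvent DMSO. Cells then received 100 µM s4U for 90 or 180 min, or none, with 3 samples in each of the 6 groups and 18 in all. SLAM-seq tells newly made RNA from old RNA by T-to-C conversions at alkylated s4U, and the authors' kinetic fit turns this into 1 half-life and 1 synthesis rate for each gene and treatment.

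In the absence of a Wnt ligand, a complex built on the scaffolds AXIN1 and APC holds beta-catenin, the product of CTNNB1, while the kinases GSK3A and GSK3B phosphorylate it and mark it for degradation by the proteasome. When a Wnt protein binds a Frizzled receptor with LRP5 or LRP6, DVL proteins recruit AXIN1 to the membrane, beta-catenin accumulates, and it acts in the nucleus with TCF7L2 and its relatives. The pathway is thus controlled largely through protein turnover; the measurements here concern the turnover of the mRNAs.

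The table holds no value for a single sample and no read counts, so depth is unknown, no error or p-value can be given, and each difference below is between 2 fitted values. A gene is called longer-lived or shorter-lived if its half-life in STM2457, set against that in DMSO, passed 1.5-fold, and synthesis was called higher or lower by the same size. By this rule 28.5% of the whole table was longer-lived and 24.9% was shorter-lived, so a single gene past this size is common in this table. The time unit is not named; hours were inferred from the ceiling of 69.3 h, the half-life of a decay rate of 0.01 per hour. Of 9 genes listed as expressed in HEK293 cells, 5 were in the table, among them VIM and KRT18, and PAX2, LHX1, EYA1 and KRT8 were not. Of 17 marker entries for 5 other cell types, COL1A1 and CDX2 were present, and none of the leukocyte, hepatocyte or endothelial markers was. METTL3 mRNA itself had a half-life of 3.51 h in STM2457 and 4.00 h in DMSO; the compound acts on the protein.

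The series concerns m6A in coding regions, and m6A occurs in the DRACH motif: A, G or T, then A or G, then AC, then A, C or T. The windows here show GGACT, 1 of the DRACH sequences, in the coding strand of the core genes. They are given to show how far such matches lie from exon junctions in longer-lived genes (APC, AXIN1), in shorter-lived ones (DVL2, GSK3A) and in genes within 1.5-fold in half-life (LRP5, GSK3B, CTNNB1). All of these but GSK3B and CTNNB1 have at least 1 match 100 nt or more from a junction. Capitals mark the motif, sequences run 5′ to 3′, positions are GRCh38, and the sequence is GENCODE release 29. Only the sense strand was searched. A match is a sequence and not a measured m6A site.
APC, chr5:112842782-112842806, plus strand: tgcctccaaaGGACTaaatcagatg
APC, chr5:112843570-112843594, plus strand: tgagaattgaGGACTgtcccattaa
APC, chr5:112843908-112843932, plus strand: tcacctagtgGGACTgttgctgcca
AXIN1, chr16:346704-346728, minus strand: agcctgttcaGGACTttcctgaagc
AXIN1, chr16:346667-346691, minus strand: ccgacttgctGGACTtctggtttgc
LRP5, chr11:68347949-68347973, plus strand: cggccgcagtGGACTtccagttttc
LRP5, chr11:68449048-68449072, plus strand: ccccctgcacGGACTcatcctgacc
DVL2, chr17:7226146-7226170, minus strand: gaagcaagtgGGACTagcgatgggg
GSK3A, chr19:42242399-42242423, minus strand: ggcagggcgcGGACTagctcgttcg
GSK3B, chr3:119923440-119923464, minus strand: atctggtgctGGACTatgttccgga
CTNNB1, chr3:41224595-41224619, plus strand: agtcttacctGGACTctggaatcca

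APC has 5 coding GGACT matches. The 3 shown lie 5241, 6029 and 6367 nt from the nearest exon junction, within a coding exon of 6571 nt, and the other 2 lie 4 and 36 nt from a junction in an exon of 140 nt. The 2 matches of AXIN1 lie 390 and 427 nt from a junction in an exon of 878 nt. LRP5 has 15 coding GGACT matches, of which 5 are at least 100 nt from a junction; those shown are its first and its last such match, 114 and 251 nt away. DVL2 has 5 matches; the one shown lies 155 nt away and the other 4 lie 14 to 55 nt away. The single match of GSK3A lies 228 nt away. GSK3B has 2 coding matches, 31 and 5 nt from a junction, and the one shown is the one whose window falls in 1 exon. CTNNB1 has 7 and none of them is 100 nt from a junction; the one shown, 81 nt away, was chosen after its sequence was seen, because it lies in the stretch that encodes the degron which the ubiquitin ligase BTRC reads. TCF7L2 has 1 match, 11 nt from a junction. Of 8527 genes with a coding sequence, 74.8% hold at least 1 coding GGACT and 28.8% at least 1 that is 100 nt or more from a junction.

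Half-lives were compared first. In the destruction complex APC and AXIN1 were longer-lived, GSK3A was shorter-lived and GSK3B stayed within 1.5-fold. These 4 genes held the widest spread of the core roles, but each other role has only 1 or 2 genes. In the wider role lists below, log2 ratios ran from -1.19 to 2.78 in the destruction complex. They ran from -0.76 to 5.28 in receptors and from -1.53 to 2.94 in nuclear effectors, both wider. DVL2 was shorter-lived, and the co-receptor LRP5 and both effectors stayed within 1.5-fold. In all, 2 of 8 genes were longer-lived and 2 were shorter-lived, shares of 25% each, near the 28.5% and 24.9% of all genes. All 8 have both half-lives between 0.5 and 24 h. Among the 7368 genes of the table in that range, 20.3% were longer-lived and 27.4% shorter-lived. At a 2-fold rule APC and AXIN1 were still longer-lived, as were 19.7% of all genes, and no core gene was shorter-lived, against 11.3%. The median log2 ratio was 0.31 over the 8 genes and -0.01 over all genes.

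The co-receptor LRP5 (ENSG00000162337.12, chromosome 11, 68312609 to 68449275) is the single-pass protein that, with Frizzled, receives the Wnt signal. Its half-life was 3.92 h in STM2457 and 3.14 h in DMSO, a log2 ratio of 0.32, and thus within 1.5-fold. DVL2 (ENSG00000004975.12, chromosome 17, 7225341 to 7234545), which relays the signal from the receptors to AXIN1, had 3.94 h in STM2457 and 7.44 h in DMSO, 1.89-fold shorter (log2 ratio -0.91). LRP5 and DVL2 thus had almost equal half-lives in STM2457, though DVL2 was the longer-lived of the pair in DMSO.

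APC (ENSG00000134982.17, chromosome 5, 112707498 to 112846239) encodes the large scaffold that is lost in most colorectal cancers. Its half-life was 16.9 h in STM2457 and 2.45 h in DMSO, 6.89-fold longer (log2 ratio 2.78). APC stood at percentile 80.7 of all half-lives in STM2457 and at percentile 18.2 in DMSO, and its ratio at percentile 94.7; 478 of 8996 genes had a ratio at least as large, APC included. AC008575.1, annotated as protein-coding, overlaps APC on the same strand across its 3′ end and has its own row, with 69.3 h (the ceiling) in STM2457 and 2.99 h in DMSO. The sources used here do not say how reads of the shared stretch were assigned, so the size of the APC ratio is uncertain. AXIN1 (ENSG00000103126.15, chromosome 16, 287440 to 352673), the scaffold on which the complex is built, had 7.37 h in STM2457 and 3.47 h in DMSO, 2.13-fold longer (log2 ratio 1.09). No annotated gene overlaps it.

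The GSK3 paralogs, kinases with largely shared substrates, differed from each other. GSK3A (ENSG00000105723.12, chromosome 19, 42230186 to 42242625) had 3.36 h in STM2457 and 5.55 h in DMSO, 1.65-fold shorter (log2 ratio -0.73). GSK3B (ENSG00000082701.15, chromosome 3, 119821323 to 120094417) had 2.93 h in STM2457 and 2.33 h in DMSO, a log2 ratio of 0.33. The 2 mRNAs were closer in half-life in STM2457 than in DMSO, and GSK3A was the longer-lived in both. GSK3A overlaps AC006486.1 on the same strand; that gene has no row in the table.

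The effectors took opposite ends of the range in DMSO. CTNNB1 (ENSG00000168036.18, chromosome 3, 41194741 to 41260096), which encodes beta-catenin, had 10.5 h in STM2457 and 8.43 h in DMSO, a log2 ratio of 0.31. TCF7L2 (ENSG00000148737.17, chromosome 10, 112950250 to 113167678), the DNA-binding partner of beta-catenin, had 1.63 h in STM2457 and 1.34 h in DMSO, a log2 ratio of 0.28. CTNNB1 was the longest-lived of the 8 mRNAs in DMSO, at percentile 67.6 of all genes, and TCF7L2 the shortest-lived in both treatments, in DMSO at percentile 4.56. The 3′ end of CTNNB1 overlaps ULK4 on the other strand, and ULK4 has no row. LRP5, GSK3B, CTNNB1 and TCF7L2 had log2 ratios between 0.28 and 0.33, all on the longer side and all below the size rule.

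**Figure D1:**
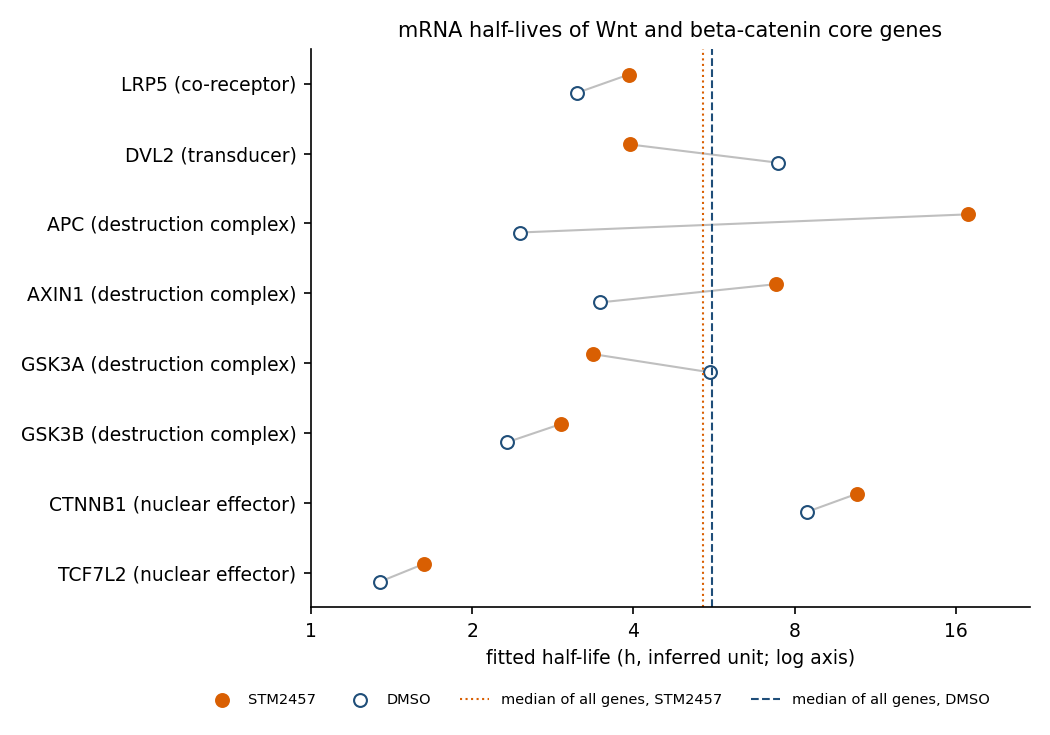
Fitted half-lives of the 8 core genes on a log axis in hours (inferred unit), with STM2457 as filled points above DMSO as open points and the medians of all genes, 5.39 h in STM2457 and 5.61 h in DMSO, as vertical lines. APC and AXIN1 lie to the right of the lines in STM2457 and to the left of them in DMSO, and DVL2 lies the other way round.

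A half-life can be read as the share of the mRNA that would be new after a given labelling time if the mRNA were at steady state. For APC the fits imply 11.6% new RNA after 180 min in STM2457 and 57.2% in DMSO. For AXIN1 they imply 24.6% in STM2457 and 45.1% in DMSO, and for DVL2 41.0% in STM2457 and 24.4% in DMSO. For CTNNB1 the values were 18.04% in STM2457 and 21.9% in DMSO, and for TCF7L2 72.1% in STM2457 and 78.8% in DMSO. The ratios of CTNNB1 and TCF7L2 thus correspond to a few percentage points of new RNA, and no replicate values are at hand to say whether differences of that size exceed the spread between samples.

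Synthesis rates, whose scale the table does not name, are read mainly as ratios within a gene. LRP5 had 12.3 in STM2457 and 48.2 in DMSO, 3.91-fold lower (log2 ratio -1.97), and 18 of 8993 genes had a synthesis ratio that low, LRP5 included. In both treatments its rate was the smallest among the 8 core genes, and depth is unknown, so the size of this ratio is uncertain. APC had 143 in STM2457 and 224 in DMSO, 1.57-fold lower (log2 ratio -0.65). These were the 2 of 8 genes past 1.5-fold downwards, against 13.2% of all genes, and 0 of 8 passed it upwards, against 12.6%. LRP5 alone passed a 2-fold rule, where 3.18% of all genes were lower and 5.6% higher. GSK3B came close to 1.5-fold, with 154 in STM2457 and 226 in DMSO (log2 ratio -0.55).

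DVL2 had a synthesis rate of 78.8 in STM2457 and 103 in DMSO (log2 ratio -0.39). CTNNB1 had 210 in STM2457 and 232 in DMSO (log2 ratio -0.14), and TCF7L2 709 in STM2457 and 716 in DMSO (log2 ratio -0.01). AXIN1 and GSK3A were the core genes with ratios above 1: AXIN1 had 152 in STM2457 and 115 in DMSO (log2 ratio 0.40), and GSK3A 95.5 in STM2457 and 81.7 in DMSO (log2 ratio 0.22). The median log2 synthesis ratio was -0.27 over the 8 genes and -0.06 over all genes. By role, the co-receptor passed the size rule in synthesis alone, DVL2 in half-life alone and the effectors in neither, while 3 of the 4 destruction complex genes passed it in half-life, longer or shorter, and 1 of them, APC, in synthesis as well. Over all genes 53.4% passed it in half-life in either direction, and with 4 genes nothing is read from the difference.

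**Figure D2:**
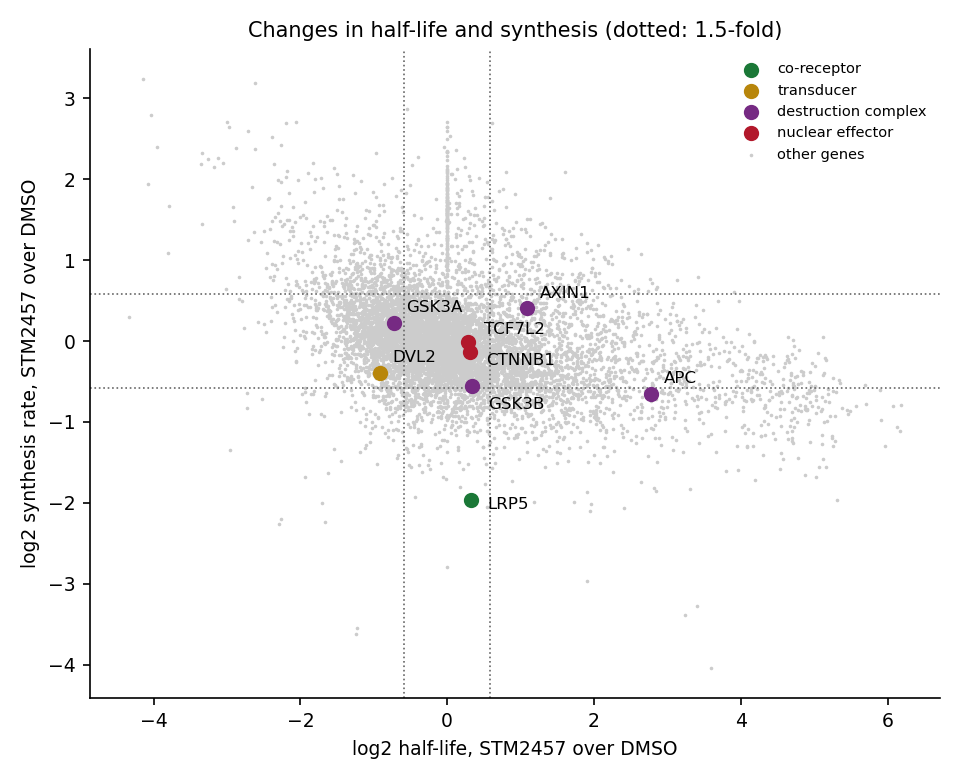
Log2 ratio of half-life (x axis) against log2 ratio of synthesis rate (y axis), STM2457 over DMSO, for the 8 core genes in colours by role and the other genes in grey, with dotted lines at 1.5-fold. APC lies far to the right at 2.78 with a synthesis ratio of -0.65, LRP5 lies near the bottom at -1.97, and CTNNB1 and TCF7L2 lie side by side near the centre.

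Synthesis rate times half-life gives the steady-state abundance that each fit implies, and its ratio sets the genes in another order. LRP5 and DVL2 were implied to be lower in STM2457, at 0.319-fold and 0.404-fold their DMSO level. GSK3A was at 0.707-fold, GSK3B at 0.859-fold, CTNNB1 at 1.12-fold and TCF7L2 at 1.20-fold. AXIN1 was at 2.81-fold and APC at 4.39-fold. A gene that started at its DMSO level and was made for 6 h, the 3 h before labelling plus 180 min of it, at the STM2457 rate with no decay at all would reach 2.59-fold for AXIN1 and 2.08-fold for APC. Both implied abundances lie above that reach, as they do for 23.4% of all genes. No such check was made for falls, so whether 6 h would allow those of LRP5 and DVL2 was not tested. Synthesis rate and half-life were fitted together, so the sizes of all these shifts were not shown to be abundances present in the cells.

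Coding DRACH motifs at least 100 nt from an exon junction were counted in the longest coding sequence of each gene. APC had 157, a number that 23 of 8527 genes reached, APC included, and 77.0% of its coding sequence of 8529 nt lies in 1 exon. LRP5 had 26, AXIN1 24 and CTNNB1 10. TCF7L2 had 8, DVL2 6, GSK3A 1 and GSK3B 0. The median over all genes was 3.

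Over all genes, those with 10 or more such motifs had a median log2 half-life ratio of 0.48, with quartiles of -0.15 and 1.34. APC (2.78) lay above these quartiles, and LRP5 (0.32), AXIN1 (1.09) and CTNNB1 (0.31) between them. In the class of 4 to 9 motifs the median was -0.02, with quartiles of -0.53 and 0.63; TCF7L2 (0.28) lay between these and DVL2 (-0.91) below. GSK3A, with a ratio of -0.73, was in the class of 1 to 3 motifs, whose quartiles were -0.71 and 0.35, and GSK3B, with 0.33, in the class of 0, with quartiles of -0.76 and 0.43. The 2 longer-lived core genes had 157 and 24 far motifs and the 2 shorter-lived ones 6 and 1. But LRP5 (26), CTNNB1 (10), TCF7L2 (8) and GSK3B (0) stayed within 1.5-fold. The order of the genes depends on the distance used. At 50 nt from a junction APC had 167 motifs, LRP5 65, AXIN1 31 and CTNNB1 29. DVL2 and TCF7L2 had 11 each, and GSK3A and GSK3B 8 each. At 200 nt APC had 151, AXIN1 14, DVL2 4 and TCF7L2 2. LRP5, GSK3A and CTNNB1 had 1 each and GSK3B 0. With 8 genes, and motif counts that may grow with coding length, this is a description and was not tested.

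**Figure D3:**
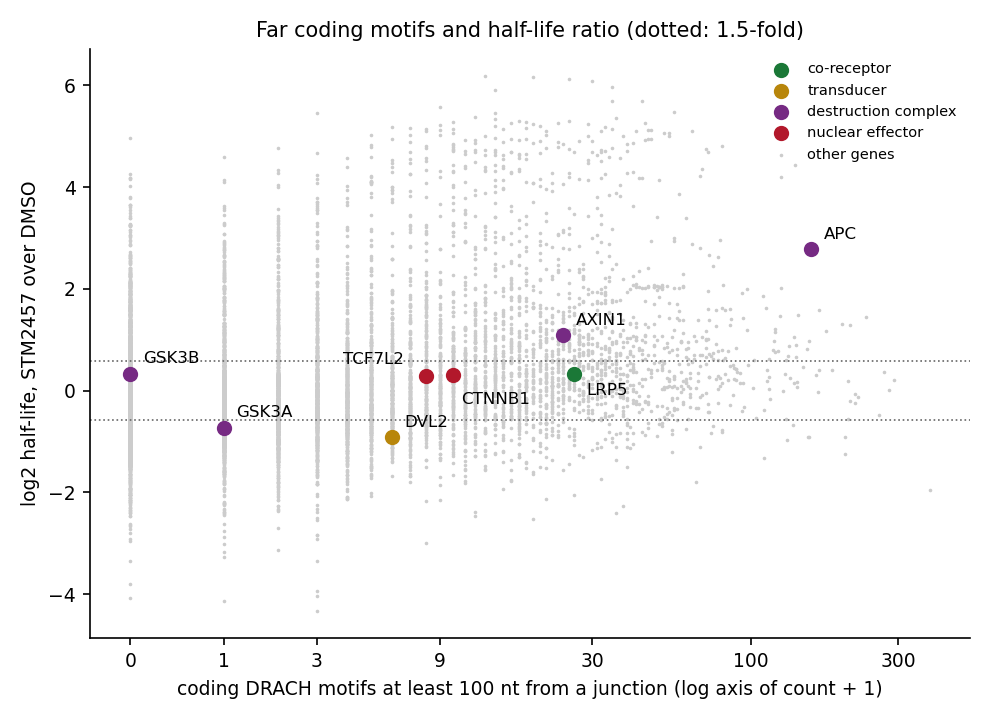
Coding DRACH motifs at least 100 nt from a junction (x axis, log axis of the count plus 1) against the log2 half-life ratio of STM2457 over DMSO (y axis), with the 8 core genes in colours by role, other genes in grey and dotted lines at 1.5-fold. APC stands at 157 motifs and 2.78, and LRP5 and AXIN1 have similar counts at this distance, 26 and 24, with ratios of 0.32 and 1.09.

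The wider pathway was described with 8 role lists of 148 genes, of which 82 were in the table, the 8 core genes among them. Among them 24 (29.3%) passed the size rule as longer-lived and 18 (21.95%) as shorter-lived, and 40 did not pass it; the shares over all genes were 28.5% and 24.9%. Their median log2 ratio was -0.07. The lists were chosen with earlier results of these data known. Lower synthesis past 1.5-fold was found in 16 of the 82 (19.5%) and higher synthesis in 7 (8.54%), against 13.2% and 12.6% of all genes. Both calls, longer-lived and lower in synthesis, were made for 11 of the 82 (13.4%), against 7.65% of all genes. Among genes of lower synthesis, 11 of the 16 (68.8%) were thus also longer-lived, against 57.9% of the 1189 such genes over the whole table.

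Among 9 receptors and co-receptors in the table, 4 passed the rule as longer-lived and 1 as shorter-lived (median log2 ratio 0.32). The shares were 44.4% and 11.1%, against 28.5% and 24.9% of all genes. FZD9, a Frizzled receptor, had 67.5 h in STM2457 and 1.73 h in DMSO; its STM2457 value lies just under the ceiling, so the size of the 38.9-fold ratio is uncertain. LGR4, a receptor for R-spondins, was 6.29-fold longer-lived, at 14.8 h in STM2457 and 2.36 h in DMSO. FZD2 was 5.45-fold longer-lived, at 12.0 h in STM2457 and 2.20 h in DMSO. The implied abundances of FZD9 (16.6-fold), LGR4 (3.90-fold) and FZD2 (3.40-fold) exceeded what 6 h of synthesis could reach (2.02-fold, 2.09-fold and 2.18-fold). PTK7, a Wnt co-receptor with an inactive kinase domain, was 1.69-fold shorter-lived. RYK and FZD3 had log2 ratios of -0.08 and -0.26. Synthesis was lower past 1.5-fold in 5 of the 9, LRP5 among them, and higher in 0, against 13.2% and 12.6% of all genes. Apart from LRP5, these are the 4 longer-lived genes of the list. Synthesis rate and half-life were fitted together, so the 2 counts are not separate results. Of these 9 genes, 7 had 10 or more far coding motifs, a class in which 23.2% of all genes had lower synthesis.

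Few secreted components were in the table. Of 21 ligand and secretion genes 3 were present: PORCN, which acylates Wnt proteins, was 1.84-fold longer-lived and at the ceiling in STM2457, WLS, which carries Wnt proteins to the surface, was 2.72-fold shorter-lived, and WNT5A had a log2 ratio of -0.15. Of 21 genes for receptor turnover and antagonists 2 were present. ZNRF3, a ubiquitin ligase that removes Frizzled receptors, was 2.05-fold longer-lived, and KREMEN1, a receptor for DKK antagonists, 3.44-fold shorter-lived.

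The 12 transducers held 2 longer-lived and 3 shorter-lived genes (median log2 ratio -0.28). These are 16.7% and 25%, against 28.5% and 24.9% of all genes. The DVL paralogs lay on the same side as DVL2: DVL1 was 1.79-fold shorter-lived, at 3.76 h in STM2457 and 6.71 h in DMSO, and DVL3, named outside the rule to complete the family, had 6.38 h in STM2457 and 9.21 h in DMSO, a log2 ratio of -0.53 and within 1.5-fold. CSNK1G2, a casein kinase that phosphorylates LRP6, was 1.59-fold shorter-lived. FRAT2, which binds GSK3, was 5.02-fold longer-lived. PPP1CA, a phosphatase catalytic subunit, was 3.82-fold longer-lived with its STM2457 value at the ceiling, so that ratio is uncertain in size. The implied abundances of FRAT2 (2.67-fold) and PPP1CA (3.91-fold) exceeded what 6 h of synthesis could reach (2.08-fold and 1.23-fold). CXXC5 had a log2 ratio of 0.41.

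The destruction complex and its regulators, 20 genes, held 6 longer-lived and 3 shorter-lived ones (median log2 ratio -0.30). These are 30% and 15%, against 28.5% and 24.9% of all genes. SKP1, a subunit of the ligase that degrades beta-catenin, was longer-lived with a ratio of 4.10-fold; its STM2457 value is the ceiling, so its size and its place relative to APC are not determined. RNF146, the ligase that degrades AXIN proteins after their modification by tankyrase, was 2.54-fold longer-lived and had a log2 synthesis ratio of -1.36, so its implied abundance was 0.993-fold its DMSO level. CSNK1A1, the priming kinase for beta-catenin, was 1.70-fold shorter-lived and PPP2R5D, a regulatory subunit of protein phosphatase 2A, 2.28-fold.

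The 26 nuclear effectors held 7 longer-lived and 4 shorter-lived genes (median log2 ratio 0.00). These are 26.9% and 15.4%, against 28.5% and 24.9% of all genes. The 2 largest ratios belonged to a pair of coactivators: BCL9, which docks on beta-catenin, had 18.9 h in STM2457 and 2.47 h in DMSO, 7.66-fold longer, and PYGO2, which binds BCL9, had 19.8 h in STM2457 and 2.82 h in DMSO, 7.04-fold longer. CREBBP, a histone acetyltransferase, was 3.59-fold longer-lived. RUVBL1 and RUVBL2, helicase-like ATPases that bind beta-catenin, were 2.88-fold and 2.49-fold shorter-lived, and CTBP1, a corepressor, 2.20-fold. Like those of APC, the implied abundances of BCL9 (4.31-fold), PYGO2 (4.45-fold) and CREBBP (2.39-fold) exceeded what 6 h of synthesis could reach (1.95-fold, 1.93-fold and 2.31-fold).

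**Figure D4:**
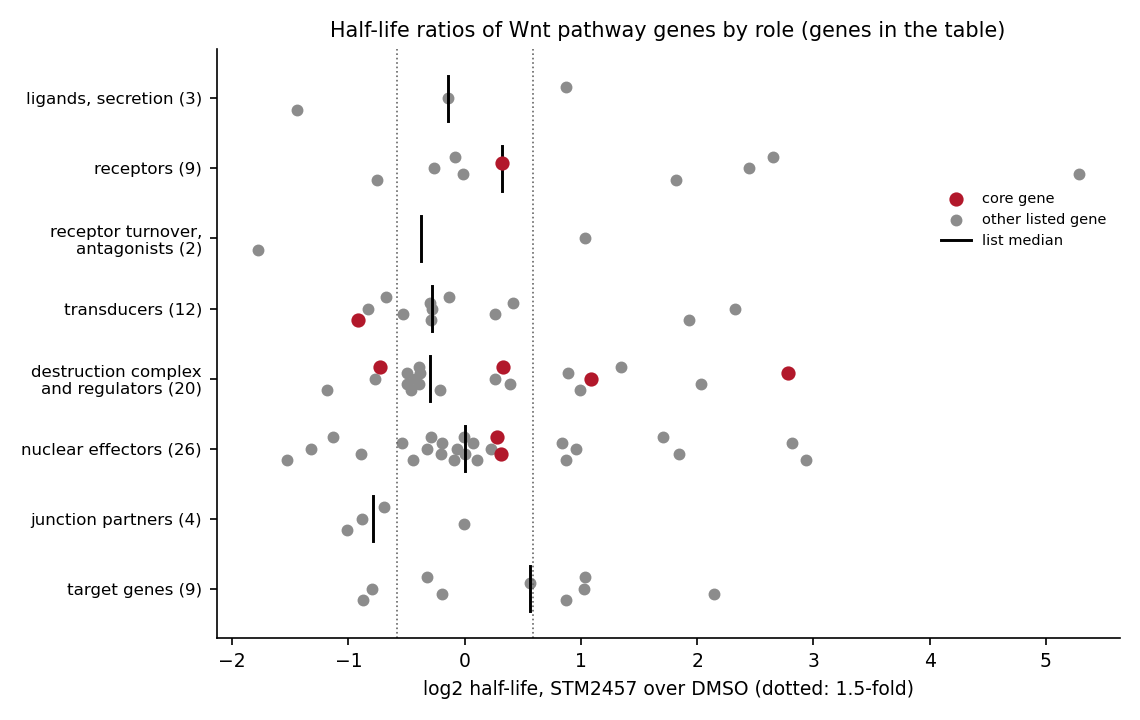
Log2 half-life ratios of STM2457 over DMSO for genes of the 8 role lists, with the number in the table in brackets, core genes in red, other genes in grey, black bars at list medians and dotted lines at 1.5-fold; a gene in more than 1 list is drawn in each. Log2 ratios above 2 are found among receptors, transducers, the destruction complex, nuclear effectors and target genes, and all 4 junction partners lie below 0.

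Beta-catenin also works at adherens junctions, where it links cadherins to alpha-catenin. Among 4 partners there, 3 were shorter-lived (median log2 ratio -0.79), against 24.9% of all genes, and with 4 genes nothing is read from this share. The 3 were CTNNA1, alpha-catenin, 2.02-fold, CTNND1, p120-catenin, 1.84-fold, and JUP, plakoglobin, 1.62-fold. CDH2, N-cadherin, had 9.60 h in STM2457 and 9.63 h in DMSO. The 9 target genes of the pathway held 4 longer-lived and 2 shorter-lived ones (median log2 ratio 0.56). These are 44.4% and 22.2%, against 28.5% and 24.9% of all genes. PPARD was 4.42-fold longer-lived and BMP4 2.04-fold, while CCND1, cyclin D1, and JUN were 1.84-fold and 1.73-fold shorter-lived. LEF1 had a log2 ratio of -0.32. The implied abundance of PPARD (4.83-fold) exceeded what 6 h of synthesis could reach (2.06-fold). The median half-life of the 9 target genes was 1.90 h in STM2457 and 1.58 h in DMSO, against 5.39 h in STM2457 and 5.61 h in DMSO over all genes.

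The genes nearest to CTNNB1 were sought over 4 values, the log2 half-life and the log2 synthesis rate in both treatments, by Euclidean distance. They were CTDNEP1 at a distance of 0.15, with 10.8 h in STM2457 and 8.36 h in DMSO, AC026362.1 at 0.17, with 10.5 h in STM2457 and 9.02 h in DMSO, and MAPKAPK2 at 0.23, with 11.2 h in STM2457 and 9.44 h in DMSO. With 4 values a gene, all from the same pair of fits, such likeness says nothing of shared function.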

How the data were processed

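SLAM-seq 3′ mRNA libraries were made from 18 samples with the QuantSeq forward kit, per the labels' protocols. FastQC 0.11.9, STAR 2.7.8a and GRCh38.p12 are named in the submitters' processing notes; the tool that fitted the kinetics, its input libraries, annotation and filters are details not given in the sources used. Per the file headers, the authors deposited for every gene a half-life and a synthesis rate in each treatment, with the log2 ratios of these; recomputed log2 half-life ratios differed from these by at most 1.27e-14. For 3 genes with a synthesis rate of 0 no synthesis ratio was formed.

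The size rule of 1.5-fold stands in for a test. Named genes were the 8 core genes, METTL3, the 3 highest and 3 lowest ratios of each role list and the 3 genes nearest to CTNNB1. Members and lists were chosen with earlier results of these data known. Motifs came from GENCODE 29 (GRCh38), where 8982 of 8996 identifiers matched without version; 8527 genes had a protein-coding transcript. Ratio calls and motif counts were tested on simulated data. Python 3.11.15, NumPy 2.4.6, pandas 2.3.3 and Matplotlib 3.10.9 were run. The alternatives tried concerned the source and centre of the ratio, the size rule, the range of half-lives, the distance to a junction and the motif.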

Additional observations from a re-analysis of the deposited data

How the results depend on the processing

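No paired analysis was possible because the table has no column for a single sample; for the same reason no replicate could be left out. With a 2-fold rule 0 core genes were shorter-lived (2 at 1.5-fold), 1 had lower synthesis (2 at 1.5-fold) and 7 of the 82 genes of the wider lists were shorter-lived (18 at 1.5-fold). By that rule 11.3% of all genes were shorter-lived and 3.18% had lower synthesis. With a looser size rule 4 core genes had lower synthesis, against 28.2% of all genes, and 1, AXIN1, had higher synthesis, against 22.8%. APC and AXIN1 stayed longer-lived under the 2-fold rule, and GSK3B, at 1.260-fold, joined them under the looser one. LRP5 (1.248-fold) and CTNNB1 (1.240-fold) fell just short of the looser rule, and TCF7L2 had 1.213-fold. Over all genes 19.7% were longer-lived under the 2-fold rule and 35.4% under the looser one. The median number of far coding motifs over the 8 genes was 9, and became 20 at 50 nt from a junction, 1.5 at 200 nt and 2 with GGACH (GGAC, then A, C or T) in place of DRACH. With GGACH, LRP5 had 11 and AXIN1 10. All 8 core genes have both half-lives between 0.5 and 24 h and none is at the ceiling, so these limits changed no value of theirs. The limits did change the shares over all genes, to 20.3% longer-lived and 27.4% shorter-lived past 1.5-fold. Of the 8996 genes, 980 were at the ceiling in STM2457 and 229 in DMSO. The deposited ratios and centring on the median of all genes changed no call of a core gene. Depth is unknown, so genes with few reads cannot be told from deeply read ones.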

Other observations

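Across the 82 pathway genes in the table, half-life ratios differed by the number of far coding motifs, a split looked at after the ratios were known. The gene lists too were chosen with earlier results of these data known. Differences from all genes are therefore not read as a trait of the pathway. The 25 genes with 10 or more such motifs held 16 longer-lived (64.0%) and 2 shorter-lived ones, and their median log2 ratio was 1.03; over all genes of that class 45.9% were longer-lived and 10.5% shorter-lived. The 57 genes with fewer held 8 longer-lived (14.0%) and 16 shorter-lived ones (28.1%), and their median was -0.29; over all genes of that class the shares were 22.5% and 29.7%. Synthesis was lower past 1.5-fold in 11 of the 25 (44.0%) and in 5 of the 57 (8.77%), against 23.2% and 9.66% of all genes in these classes. Both calls, longer-lived and lower in synthesis, were made for 10 of the 25 (40%) and 1 of the 57 (1.75%), against 17.7% and 4.31% of all genes in these classes, so a contrast between the classes is present over the whole table as well. Implied abundances above the reach of 6 h of synthesis were found in 8 of the 25 (32%) and in 7 of the 57 (12.3%), while over all genes the classes had near-equal shares, 22.4% and 23.5%. Coding length, exon length and baseline half-life may differ between the classes, and their part in this split was not tested.

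SKP1, PPP1CA and PORCN, with 0, 2 and 0 far motifs, were longer-lived and at the ceiling in STM2457, with half-lives of 16.9, 18.2 and 37.8 h in DMSO.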
